A study of Mus musculus with 7 samples.

Results

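The insulin-like growth factor axis was followed through adrenal development in the mouse with 10 genes: the ligands Igf1 and Igf2, the noncoding transcript H19, the receptors Igf1r and Igf2r, and the binding proteins Igfbp2, Igfbp3, Igfbp4, Igfbp5 and Igfbp6. They were chosen by symbol, and all 10 were found among the 35976 genes of the table and among the 16720 that averaged 10 normalized counts or more and were tested. Adrenals of inbred C57BL/6J mice were pooled and their total RNA was sequenced, with 1 library per pool and 1 pool per group. The 7 pools held 40 glands from E18.5 embryos of undetermined sex, 16 glands from males and 22 from females at P1, 6 from each sex at 2 weeks and 4 from each sex at 12 weeks. All groups shared the strain, and their labels name no treatment or engineered allele. E stands for embryonic and P for postnatal day. Where 2 values are given for an age, the male library comes first. Total reads in genes ranged from 15184210 to 23551289 per library.

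IGF1 and IGF2 are small secreted growth factors that signal through the IGF1 receptor, a tyrosine kinase. IGF2R takes up IGF2 and delivers it to lysosomes, and the binding proteins carry the ligands in blood and hold or release them in tissue. Igf2 and H19 are neighbouring imprinted genes that share enhancers, Igf2 being read from the paternal and H19 from the maternal allele, and both are known for high levels in fetal tissues, the fetal adrenal gland, liver and muscle included. Igf2r is imprinted in the mouse as well, and is read mainly from the maternal allele.

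In mm10, the build named in the submitters' processing notes, the GENCODE annotation places Igf2 (ENSMUSG00000048583.16) at chr7:142650766-142666816 and H19 (ENSMUSG00000000031.16) at chr7:142575529-142578143, both on the minus strand. Igf1 lies at chr10:87858265-87937042, Igf1r at chr7:67952827-68233668 and Igf2r at chr17:12682406-12769664. Igfbp2 (chr1:72824503-72852474) and Igfbp5 (chr1:72857932-72874884) are neighbours on chromosome 1, Igfbp3 (chr11:7206086-7213923) and Igfbp4 (chr11:99041244-99054392) lie on chromosome 11, and Igfbp6 is at chr15:102144362-102149511. Exons of Igf2 overlap those of the antisense gene Igf2os and of Gm49394, and exons of H19 hold Mir675. How strand was used in counting is not given in the sources used here, so reads of Igf2 and Igf2os cannot be told apart with certainty.

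The sequences before the starts of 3 members are shown because their transcripts took different courses after birth: Igf2 and Igfbp2 fell, and no age difference of Igf1r passed the test. RefSeq promoter sequences (GRCm38.p6) were found for 9 of the 10 members. Each line gives the 250 bases before a start, 5′ to 3′ on the gene's strand, with capitals marking a GC box (GGGCGG) or a CCAAT box (CCAAT) on either strand. The Igf2 window is at chr7:142657497-142657746 (minus strand, one of 4 starts listed), the Igfbp2 window at chr1:72824230-72824479 (plus strand, one of 2) and the Igf1r window at chr7:67952007-67952256 (plus strand).
Igf2: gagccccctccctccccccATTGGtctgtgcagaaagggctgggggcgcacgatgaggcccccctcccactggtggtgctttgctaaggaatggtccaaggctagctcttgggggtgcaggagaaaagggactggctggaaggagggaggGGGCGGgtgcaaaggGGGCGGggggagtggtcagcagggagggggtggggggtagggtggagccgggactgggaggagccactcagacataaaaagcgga
Igfbp2: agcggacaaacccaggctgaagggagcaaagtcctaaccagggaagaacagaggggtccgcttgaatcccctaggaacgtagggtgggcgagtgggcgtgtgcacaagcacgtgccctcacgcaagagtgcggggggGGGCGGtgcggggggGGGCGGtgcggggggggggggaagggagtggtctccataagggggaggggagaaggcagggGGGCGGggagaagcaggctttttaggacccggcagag
Igf1r: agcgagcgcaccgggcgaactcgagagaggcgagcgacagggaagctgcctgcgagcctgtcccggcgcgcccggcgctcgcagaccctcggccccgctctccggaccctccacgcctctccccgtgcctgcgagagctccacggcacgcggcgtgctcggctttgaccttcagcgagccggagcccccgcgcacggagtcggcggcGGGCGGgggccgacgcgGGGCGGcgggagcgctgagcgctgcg
The Igf2 window held 2 GC boxes and 1 CCAAT box, the Igfbp2 window 3 GC boxes and the Igf1r window 2 GC boxes. None of these matches overlapped another. Where a gene has several starts, the window shown is the one with the most GC boxes, chosen after the matches were counted. The other Igf2 windows held 0, 0 and 1 GC boxes and no CCAAT box, with 1, 10 and 22 CpG dinucleotides, and the other Igfbp2 window held neither box. Of 32851 windows of the same length in the table, 32.7% held a GC box and 33.8% a CCAAT box. The Igf1r window had 42 CpG dinucleotides, against 6 in the Igf2 window, 14 in the Igfbp2 window and a median of 6 over all windows. A match describes these letters only, and the counts per gene do not tell which start was used.

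H19 is also the host of a microRNA, and its mature forms are shown because H19 changed most among the members. The seed, bases 2 to 8, is in capitals. The gene's own row in the table, Mir675, had 0 normalized counts in all 7 libraries, so the mature forms were not measured here.
mmu-miR-675-5p: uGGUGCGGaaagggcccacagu
mmu-miR-675-3p: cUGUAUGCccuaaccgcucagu

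Some libraries held transcripts that did not match their labels or their tissue. In the library labelled P1 female, 4 Y-linked genes had a median of 21.0% of their level in P1 male, against 0.0609% at 2 weeks and 0.0132% at 12 weeks. Markers of the adrenal cortex (10 of 10 measured) and of chromaffin cells (8 of 8) were above 0 in all libraries, with the cortex sum lowest in P1 female (261645 normalized counts) and highest in 12-week female (1144112). Markers of other tissues varied widely. The sum of 8 liver markers ranged from 432.2 to 380260 normalized counts, that of 9 skeletal muscle markers from 100.7 to 149276, that of 8 kidney markers from 33.6 to 9110 and that of 8 exocrine pancreas markers from 1.78 to 6505. The sum of 7 adipocyte markers ranged from 2893 to 47087. In pooled glands, fewer cells of a type and less RNA per cell cannot be told apart.

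Whether the axis changed after birth was tested between P1 and 2 weeks, with sex as a block, in limma fits of log2(normalized count + 1) over all genes. A difference is the later minus the earlier age, and the threshold was a Benjamini-Hochberg adjusted p of 0.05. Each age had 1 male and 1 female pool, and the block takes out a constant sex difference. The spread behind these p-values is thus how far the age differences departed between the sexes. Of the 10 members, 6 fell and 0 rose, against 10.5% of all tested genes that fell and 5.89% that rose. The median difference over the members was -1.47, against 0.00 over all genes tested.

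Igf2 was measured at 22913 normalized counts before birth, 35815 and 40516 at P1, 998.1 and 1727 at 2 weeks, and 321.6 and 264.7 at 12 weeks. The perinatal libraries were thus all above the 2-week libraries, and these above the 12-week libraries. From P1 to 2 weeks Igf2 was 35.9-fold lower in males (95% counting interval 33.8 to 38.1) and 23.5-fold lower in females (22.4 to 24.6). It fell by 4.86 ± 0.249 on the log2 scale (SE, limma adjusted p 0.000774). Between 2 weeks and 12 weeks Igf2 fell by 2.17 ± 0.249 (adjusted p 0.0039).

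H19 was measured at 51600 normalized counts before birth, 73523 and 97535 at P1, 1946 and 4388 at 2 weeks, and 43.3 and 83.7 at 12 weeks. It was the member with the widest range. H19 fell by 4.86 ± 0.204 on the log2 scale from P1 to 2 weeks (adjusted p 0.000562 in limma). In the next step it fell by 5.58 ± 0.204 (adjusted p 0.000393). Over both steps it was 1696-fold lower in males (95% counting interval 1195 to 2497) and 1165-fold lower in females (928 to 1484).

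The relation of Igf2 to H19 changed between 2 weeks and 12 weeks. Igf2 reads per H19 read were 0.444 at E18.5, 0.487 and 0.415 at P1, and 0.513 and 0.393 at 2 weeks. At 12 weeks the ratio was 7.42 in males (95% counting interval 5.085 to 11.2) and 3.16 in females (2.425 to 4.165). Both 12-week libraries therefore lay above the other 5, and the male library above the female. Igf2 and H19 together took 0.567% of all reads in genes in P1 male and 0.677% in P1 female, but 0.00172% and 0.00160% in the 12-week libraries.

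**Figure D1:**
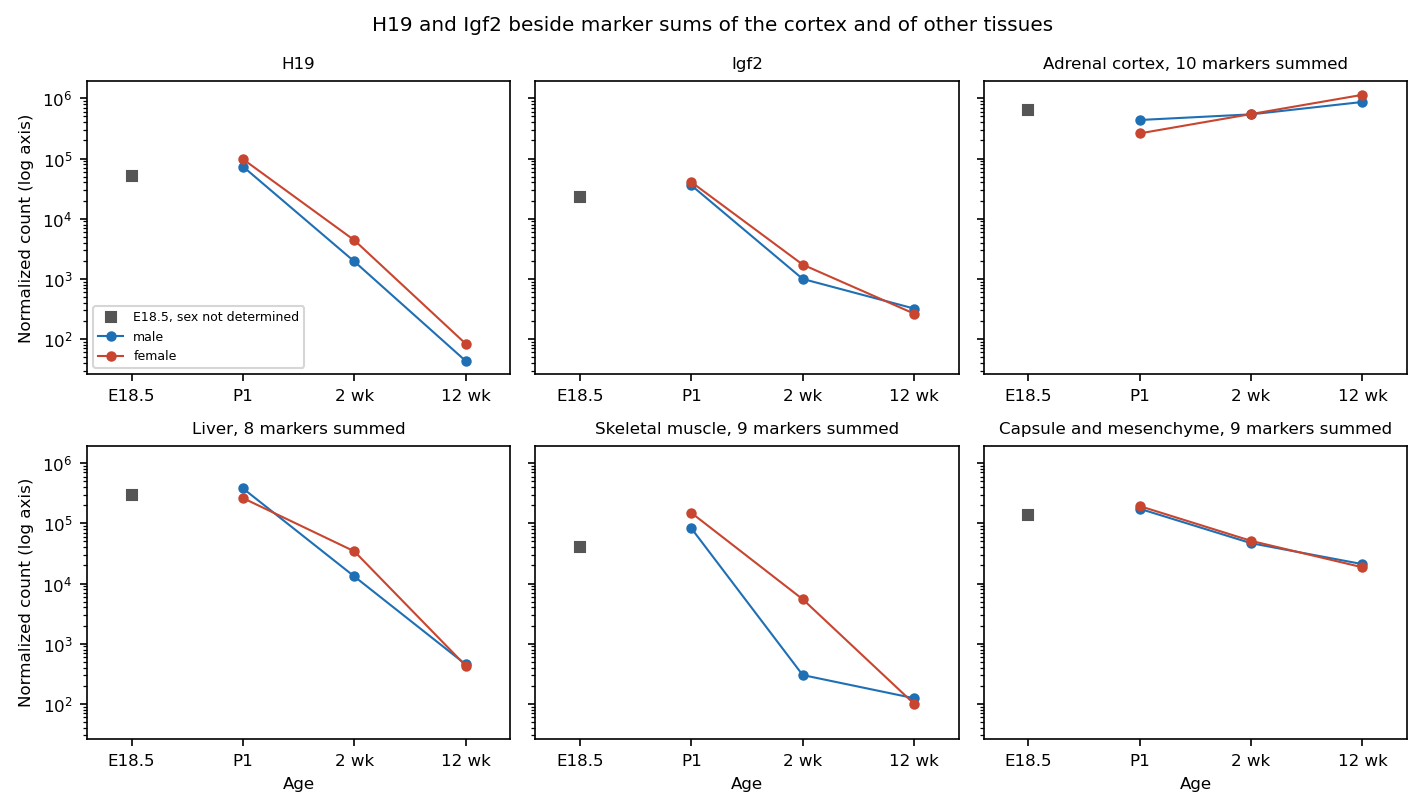
Normalized counts of H19 and Igf2 and summed normalized counts of 4 marker lists (log axis) against age, with 1 pool per point: square, E18.5; blue, male; red, female. H19, Igf2 and the liver and skeletal muscle sums were all far lower after P1. The adrenal cortex sum was higher at 12 weeks than at P1. The median of its 10 markers was 49190 and 15470 at P1, and lay between these values at 12 weeks (39823 and 39808).

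Summed markers of liver, skeletal muscle, and capsule and mesenchyme moved in the same direction as Igf2 and H19. Adipocyte markers were higher after P1 instead. Their sum over 7 genes was 2893 and 3060 at P1, 42529 and 47087 at 2 weeks, and 35654 and 28589 at 12 weeks. The summed liver markers, of which 8 of 9 listed were measured, were 300190 normalized counts before birth, 380260 and 262723 at P1, 13123 and 34280 at 2 weeks, and 454.4 and 432.2 at 12 weeks, with no marker at 0. The 9 skeletal muscle markers summed to 41220 before birth, 82609 and 149276 at P1, 301.6 and 5483 at 2 weeks, and 124.4 and 100.7 at 12 weeks. Myog, a regulator of muscle differentiation, was at 0 in 2-week male and in both 12-week libraries. The 9 capsule and mesenchyme markers summed to 174522 and 193406 at P1, 46798 and 51138 at 2 weeks, and 20997 and 18602 at 12 weeks. Single genes of this list are named after their values were seen. Rspo3 rose from P1 to 12 weeks (log2 difference 1.16, limma adjusted p 0.0169), and the others were lower. From 2 weeks to 12 weeks Pdgfra and Nr2f2 were also higher, by 0.32 and 0.09 (limma adjusted p 0.186 and 0.747). The part of these tissues and cells in the falls of Igf2 and H19 was not tested.

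Igf1, the ligand that growth hormone induces after birth in liver and other tissues, changed in the same direction over a smaller range. It was measured at 3627 normalized counts before birth, 3494 and 4594 at P1, 1216 and 1420 at 2 weeks, and 1025 and 844.0 at 12 weeks. The perinatal libraries were again all above the later ones. Igf1 fell by 1.61 ± 0.193 on the log2 scale from P1 to 2 weeks (adjusted p 0.00503 in limma), and the difference from 2 weeks to 12 weeks was -0.50 ± 0.193 (adjusted p 0.13). Markers of macrophages, which are known to make Igf1, were lower in sum at 2 weeks as well but higher again at 12 weeks. Their sum over 8 genes was 9054 and 10370 at P1, 3536 and 3804 at 2 weeks, and 8411 and 6758 at 12 weeks. Cd163 and Mrc1 are named after their values were seen. Cd163 was lower again at 12 weeks (121.6 and 87.1, from 266.9 and 262.9 at 2 weeks), as was Mrc1 in females (915.3 from 998.7). The liver, skeletal muscle, and capsule and mesenchyme sums given above were lower at 2 weeks than at P1 and lower again at 12 weeks. Within the last list Rspo3 was higher at 12 weeks than at P1. The part of all these lists in the fall of Igf1, and in those of Igfbp4 and Igfbp5 at the same step, was not tested.

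The balance of the ligands, compared per kilobase of exon, turned over in this time. Igf2 was 10.9 times the Igf1 level per kilobase at E18.5, 17.7 times in P1 male and 15.3 times in P1 female. At 2 weeks the ratio was 1.42 in males and 2.105 in females. At 12 weeks it was 0.543 in both libraries, with 95% counting intervals of 0.466 to 0.631 in males and 0.467 to 0.630 in females. Igf1 was thus the more abundant ligand transcript per kilobase only in the 12-week libraries among the 7. Before division by length it was also above Igf2 in 2-week male (1216 against 998.1 normalized counts). The order in that library therefore depends on the exon lengths used, 9904 bases for Igf1 and 5723 for Igf2.

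Igf1r, the signalling receptor, was measured at 5768 normalized counts before birth, 6643 and 6583 at P1, 7133 and 6745 at 2 weeks, and 5282 and 7184 at 12 weeks. All 7 libraries lay within this narrow range, and the ages overlapped. Its differences did not pass the threshold, with 0.07 ± 0.180 from P1 to 2 weeks (adjusted p 0.831 in limma), -0.17 ± 0.180 from 2 weeks to 12 weeks (adjusted p 0.559) and -0.10 ± 0.180 from P1 to 12 weeks (adjusted p 0.675). In the single libraries it was 1.35-fold lower at 12 weeks than at 2 weeks in males (95% counting interval 1.30 to 1.40) and 1.065-fold higher in females (1.03 to 1.10).

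Igf2r, which clears IGF2, was highest before birth, with 15853 normalized counts at E18.5. It had 10654 and 10878 at P1, 9694 and 7556 at 2 weeks, and 6823 and 6097 at 12 weeks. The ages did not overlap, but neither step passed alone, with -0.33 ± 0.164 from P1 to 2 weeks (adjusted p 0.218 in limma) and -0.41 ± 0.164 from 2 weeks to 12 weeks (adjusted p 0.142). From P1 to 12 weeks Igf2r fell by 0.74 ± 0.164 (adjusted p 0.0132), a call that was lost without the P1 female library (adjusted p 0.104). Airn, the noncoding transcript that overlaps Igf2r in antisense, had 302.5 normalized counts at E18.5, 157.9 and 165.6 at P1, 113.0 and 116.5 at 2 weeks and 163.6 and 101.8 at 12 weeks. Its age differences did not pass in limma (adjusted p 0.273, 0.72 and 0.386 in the order above).

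**Figure D2:**
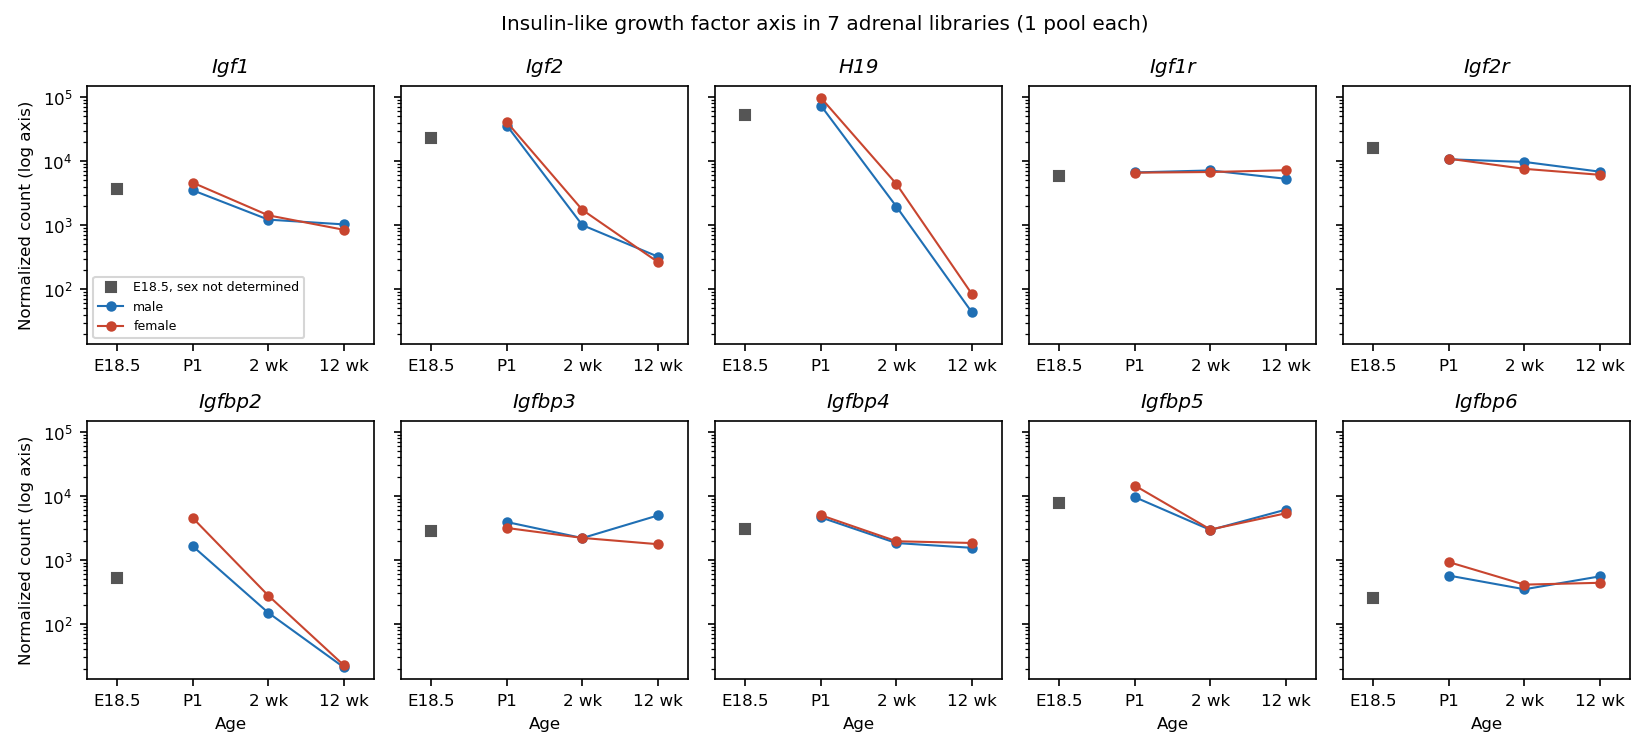
Normalized counts (log axis, the same in all panels) of the 10 genes by age, with 1 pool per point: square, E18.5; blue, male; red, female. Igf2, H19 and Igfbp2 dropped at both steps after P1, Igf1r stayed between 5282 and 7184, and Igfbp3 was apart between the sexes at 12 weeks.

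Among the binding proteins, Igfbp2 changed most. It is a main binding protein of fetal life. It was measured at 520.1 normalized counts before birth, 1635 and 4509 at P1, 149.4 and 277.0 at 2 weeks, and 21.0 and 22.6 at 12 weeks. Ages after birth did not overlap, and E18.5 lay between P1 and 2 weeks. Igfbp2 fell by 3.73 ± 0.328 on the log2 scale from P1 to 2 weeks (adjusted p 0.00248 in limma) and by 3.17 ± 0.328 from 2 weeks to 12 weeks (adjusted p 0.00269 in limma). The liver and skeletal muscle sums given above moved in the same direction, and their part was not tested.

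Igfbp5, a binding protein that attaches to the extracellular matrix, fell and then rose. It was measured at 7843 normalized counts before birth, 9559 and 14462 at P1, 2934 and 2982 at 2 weeks, and 6104 and 5351 at 12 weeks. The 2-week libraries were the lowest of the 7. Igfbp5 fell by 1.99 ± 0.212 from P1 to 2 weeks (adjusted p 0.00363 in limma) and rose by 0.95 ± 0.212 from 2 weeks to 12 weeks (adjusted p 0.0308). The rise was lost without trend in the variance model (adjusted p 0.165), and without the 2-week male, the 2-week female or the 12-week male library, with an adjusted p of up to 0.226.

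Igfbp4, which inhibits IGF action until the protease PAPP-A cleaves it, was measured at 3086 normalized counts before birth, 4610 and 4992 at P1, 1833 and 1956 at 2 weeks, and 1545 and 1839 at 12 weeks. It fell by 1.34 ± 0.138 from P1 to 2 weeks (adjusted p 0.00347 in limma). From 2 weeks to 12 weeks the difference was -0.17 ± 0.138 (adjusted p 0.448), and the 2-week male library lay within the range of the 12-week libraries.

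Igfbp3, the main carrier of IGF in adult blood, was measured at 2811 normalized counts before birth, 3906 and 3155 at P1, 2194 and 2206 at 2 weeks, and 4947 and 1759 at 12 weeks. The 12-week libraries held both the highest and the lowest value, so the ages overlapped. Its age differences did not pass the threshold, with an adjusted p of 0.221 for P1 against 2 weeks, 0.431 for 2 against 12 weeks and 0.58 for P1 against 12 weeks in limma.

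Igfbp6, which binds IGF2 in preference to IGF1, was measured at 253.7 normalized counts before birth, 568.7 and 922.8 at P1, 347.8 and 411.1 at 2 weeks, and 553.7 and 439.0 at 12 weeks. The 2-week libraries lay below those of P1. The difference from P1 to 2 weeks was -0.94 ± 0.256 and missed the threshold narrowly (adjusted p 0.0535 in limma). It passed in edgeR and DESeq2 fits of the recovered reads and without the sex block, with an adjusted p as low as 0.0155. In the other settings that kept all libraries it did not pass, with a limma adjusted p of up to 0.197.

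**Figure D3:**
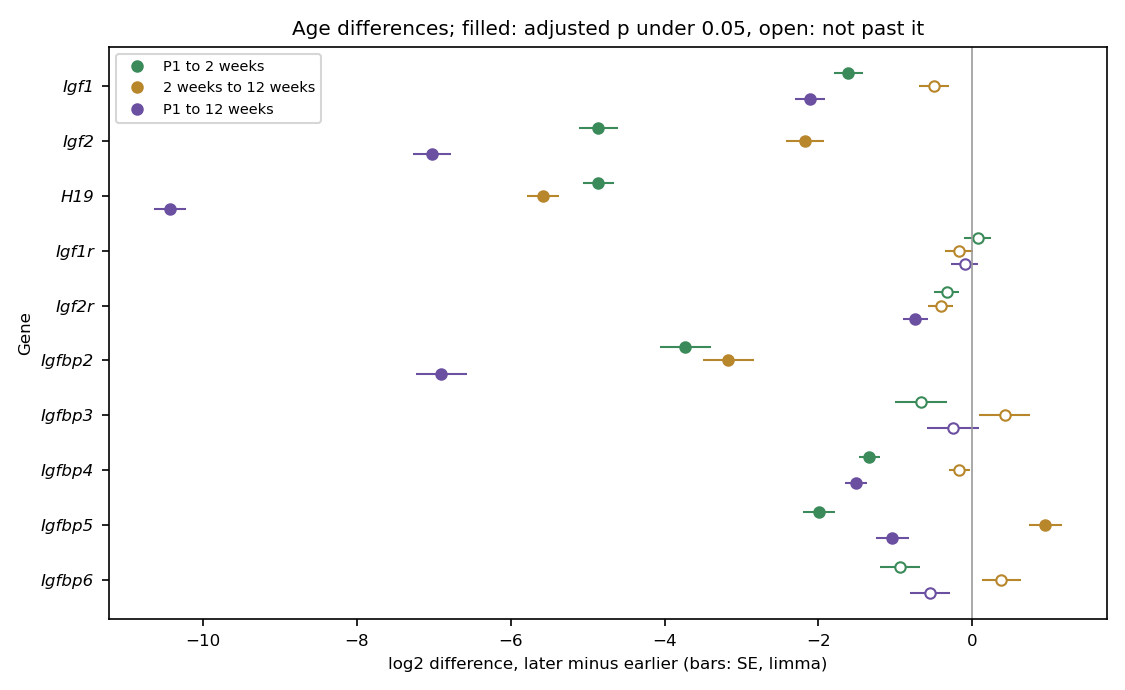
Log2 differences between ages (later minus earlier) of the 10 genes from limma, with bars of 1 SE and 3 comparisons per gene; filled points passed an adjusted p of 0.05. H19, Igf2 and Igfbp2 passed at every step, Igf1r, Igfbp3 and Igfbp6 at none, and Igfbp5 had a difference of -1.99 at the first step and 0.95 at the second.

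From 2 weeks to 12 weeks 3 of the 10 members fell (Igf2, H19 and Igfbp2) and 1 rose (Igfbp5), against 9.89% of all tested genes that fell and 5.4% that rose in limma. The members' median was -0.29 and that of all genes -0.03. From P1 to 12 weeks 7 members fell and 0 rose, against 23.5% and 17.6% of all genes, with a median of -1.27 for the members and -0.03 for all genes. The 7 were Igf1, Igf2, H19, Igf2r, Igfbp2, Igfbp4 and Igfbp5, and without the P1 female library the calls of Igf2r and Igfbp5 were lost (adjusted p 0.104 and 0.0679). Both steps share the 2-week libraries, and the 3 comparisons share their fit.

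The calls of the first step rested on all P1 libraries. Without the P1 male library 0 of the 10 members passed from P1 to 2 weeks, when 0.012% of all genes passed and 7 members had an unadjusted p under 0.05 in limma. Without the P1 female library 1 member passed (H19), against 0.167% of all genes, and without the 2-week male library 3 passed (H19, Igf2 and Igfbp2), against 1.2% of all genes. These fits had 1 residual degree of freedom and took the lone library of an age to vary like the others, and in them every member kept its direction except Igf1r. With all 27254 genes of a mean above 0 in the fit, 0 members passed at this step and 0 from 2 weeks to 12 weeks, when 7 and 4 had an unadjusted p under 0.05 and 0% of all genes passed. From P1 to 12 weeks 5 members passed without the P1 female library and 7 or more without any other single library.

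The mix of the 5 binding proteins shifted with age on the scale per kilobase. Igfbp5 held the largest share before birth (38.3%), in P1 male (30.1%) and in 12-week female (39.1%). Igfbp3 held it at 2 weeks (35.1% in males and 32.6% in females) and in 12-week male (45.7%). In P1 female Igfbp2 (31.2%) and Igfbp5 (30.8%) were close. Igfbp2 made up 8.25% before birth, 16.8% in P1 male, 4.05% and 6.93% at 2 weeks, and 0.329% and 0.538% at 12 weeks. The summed level per kilobase was highest in P1 female (7818) and P1 male (5280) and lowest in 2-week male (1998) and 2-week female (2164).

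**Figure D4:**
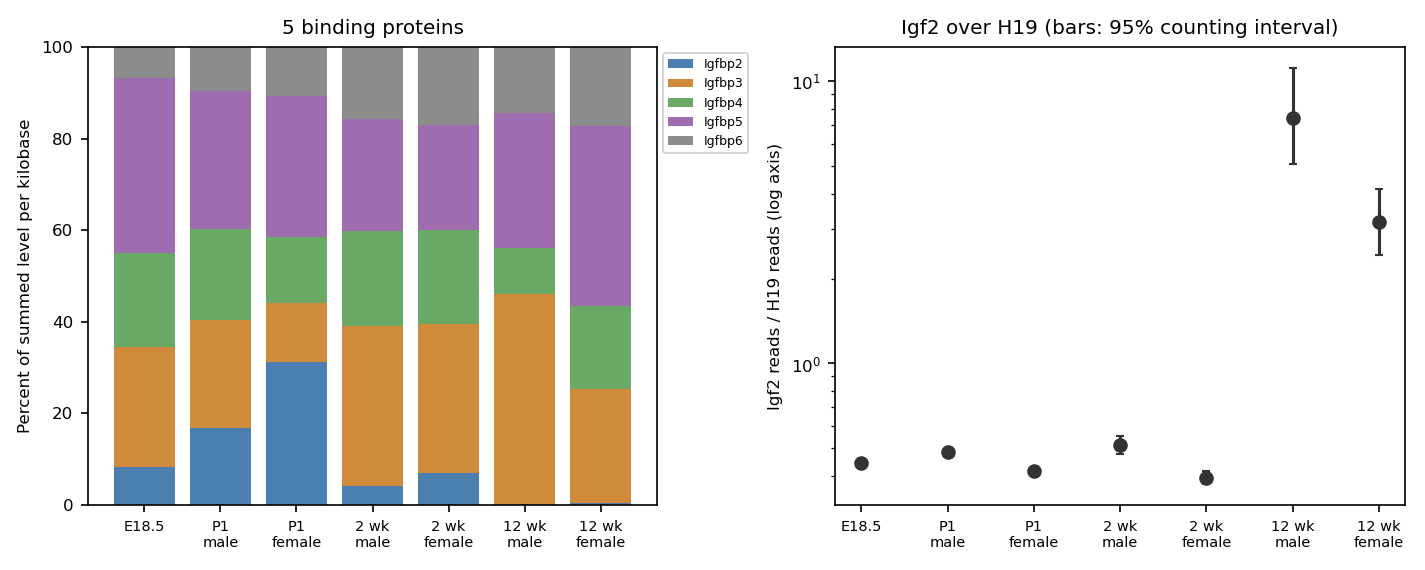
Left, the share of each of 5 binding proteins in their summed normalized count per kilobase of exon, by library (percent); right, Igf2 reads over H19 reads by library (log axis, bars of 95% counting intervals). Igfbp2 is largest in P1 female and below 1% of the mix at 12 weeks, and the Igf2 to H19 ratio lies at 0.513 or below in 5 libraries and at 3.16 and 7.42 in the 12-week libraries.

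Ordered per kilobase of exon, H19 and then Igf2 were the most abundant members in all 3 perinatal libraries, at 20976 and 4004 normalized counts per kilobase at E18.5. Behind them, the order of Igfbp5, Igfbp3, Igf2r, Igfbp4 and Igfbp2 differed between P1 male and P1 female, so these neighbours were not separated beyond the spread of the pools. At 2 weeks Igf2r led in males (1041) and H19 in females (1784), Igf2r being second there (811.8). At 12 weeks Igfbp3 led in males (1580) and Igfbp5 in females (891.0), and the last 4 places were Igf1, Igf2, H19 and Igfbp2 in both libraries, from 103.5 and 85.2 for Igf1 down to 11.35 and 12.25 for Igfbp2.

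The step from E18.5 to P1 was described without a test, since each group had 1 library. Igfbp2 and Igfbp6 were at least 2-fold higher in both P1 libraries than at E18.5, as were 2.91% of all tested genes, and no member was 2-fold lower in both, against 2.24%. Both comparisons share the E18.5 library. Igfbp2 was 3.14-fold higher in P1 male (95% counting interval 2.87 to 3.45) and 8.67-fold higher in P1 female (7.97 to 9.45), and Igfbp6 2.24-fold (1.96 to 2.57) and 3.64-fold (3.19 to 4.16). Igf2 was 1.56-fold and 1.77-fold higher and H19 1.43-fold and 1.89-fold higher at P1. Igf2r was lower in both, at 0.672 and 0.686 of its E18.5 level. The skeletal muscle sum given above was higher at P1 as well, and its part in these differences was not tested.

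No member passed the test of sex over the 3 postnatal ages, which used age as a block. The test missed known sex differences as well, so it cannot show that the members were alike in the sexes. The Y-linked genes Ddx3y, Eif2s3y, Kdm5d and Uty differed by 7.87, 6.97, 7.60 and 8.06 on the log2 scale. Each had a limma adjusted p of 0.999. In limma 0 of 10 passed, against 0.00598% of all genes, 2 had an unadjusted p under 0.05, and edgeR and DESeq2 on the recovered reads also called 0, with 2 and 3 at an unadjusted p under 0.05. The 2 in limma are named here after their values were seen. They were H19, with a male minus female difference of -0.84 ± 0.166 (unadjusted p 0.00182, adjusted p 0.999) and lower in males at 3 of 3 ages, and Igfbp2, with -0.82 ± 0.268 (unadjusted p 0.02, adjusted p 0.999), also lower in males at 3 of 3 ages. When the library labelled P1 female was left out, 0 members passed and 1 had an unadjusted p under 0.05. Igfbp2 passed when either 12-week library was left out, with an adjusted p as low as 0.0248.

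At single ages the sexes were compared without a test, as 1 library against 1. At P1 only Igfbp2 among the members was at least 2-fold apart, 2.76-fold higher in the library labelled P1 female (95% counting interval 2.61 to 2.91), when 3.03% of the genes tested were at least 2-fold lower and 3.75% that much higher in P1 male. Igfbp5 (1.51-fold) and Igfbp6 (1.62-fold) were higher in the female library too. Skeletal muscle markers were also higher in that library (149276 against 82609 in P1 male), as were Schwann cell markers (5305 against 1489). Kidney markers (9110 against 2512) and exocrine pancreas markers (6505 against 103.8) were higher in P1 male. Their part was not tested.

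At 2 weeks H19 alone was at least 2-fold apart, 2.25-fold higher in females (95% counting interval 2.14 to 2.37), when 3.67% of the genes tested were that much lower and 0.568% that much higher in the male library. Igf2 was 1.73-fold higher (1.61 to 1.86) and Igfbp2 1.85-fold higher (1.53 to 2.25) in females. The liver sum was 34280 in the female against 13123 in the male library, the skeletal muscle sum 5483 against 301.6, and the sum of 6 erythroid markers 9020 against 2232. Their part was not tested. Igfbp3 and Igfbp5 differed by no more than counting error, with male over female ratios of 0.995 (0.940 to 1.05) and 0.984 (0.938 to 1.03).

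At 12 weeks Igfbp3 was the member that stood apart between the sexes, with 4947 normalized counts in males and 1759 in females, a 2.81-fold difference (95% counting interval 2.65 to 2.99). Among the genes tested 4.84% were 2-fold or more higher in the male library of this age and 3.98% lower. Igfbp3 had been 1.24-fold higher in males at P1 (1.18 to 1.30) and level at 2 weeks. Between 2 weeks and 12 weeks it was 2.255-fold higher in males and at 0.798 of its 2-week value in females. The 12-week male library had a sum of 22268 for the endothelial markers, against 17728 in the female one. For capsule and mesenchyme markers the sums were 20997 and 18602, for erythroid markers 2652 and 1285, and for adipocyte markers 35654 and 28589. Of the 4 zona glomerulosa markers Hsd3b6, named after its values were seen, stood at 1699 normalized counts in the male and 555.5 in the female library, while the list summed to 10401 and 13797. Cyp11b2 was also higher in the male library (2525 against 2219), but Dab2 (5908.5 against 10703) and Agtr1b (268.4 against 320.2) were lower. The adrenal cortex sum (870256 against 1144112) and the chromaffin cell sum (83619 against 99848.5) were lower in the male library too. The part of these cells in the Igfbp3 difference was not tested. H19 was 1.93-fold higher in females (1.25 to 3.04) on 31 reads in males and 74 in females, and Igf1r 1.36-fold higher in females (1.31 to 1.42).

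A departure of the male minus female difference at 12 weeks from its mean at P1 and 2 weeks was tested for the members after the Igfbp3 values had been seen. In limma Igfbp3 departed by 1.34 ± 0.292 on the log2 scale (adjusted p 0.0201), the only member of 10 that passed, against 1.58% of all genes. The call was lost in 6 of 9 other settings, among them both other scalings and edgeR, with an adjusted p of up to 0.614. This fit had 1 residual degree of freedom, and on simulated data 43.5% of its calls were false. Among the other pathway genes Igf2bp3 passed (2.28 ± 0.495, adjusted p 0.0201), on 9 reads in 12-week male and 2 in 12-week female, and that call was lost in 7 of 9 settings.

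**Figure D5:**
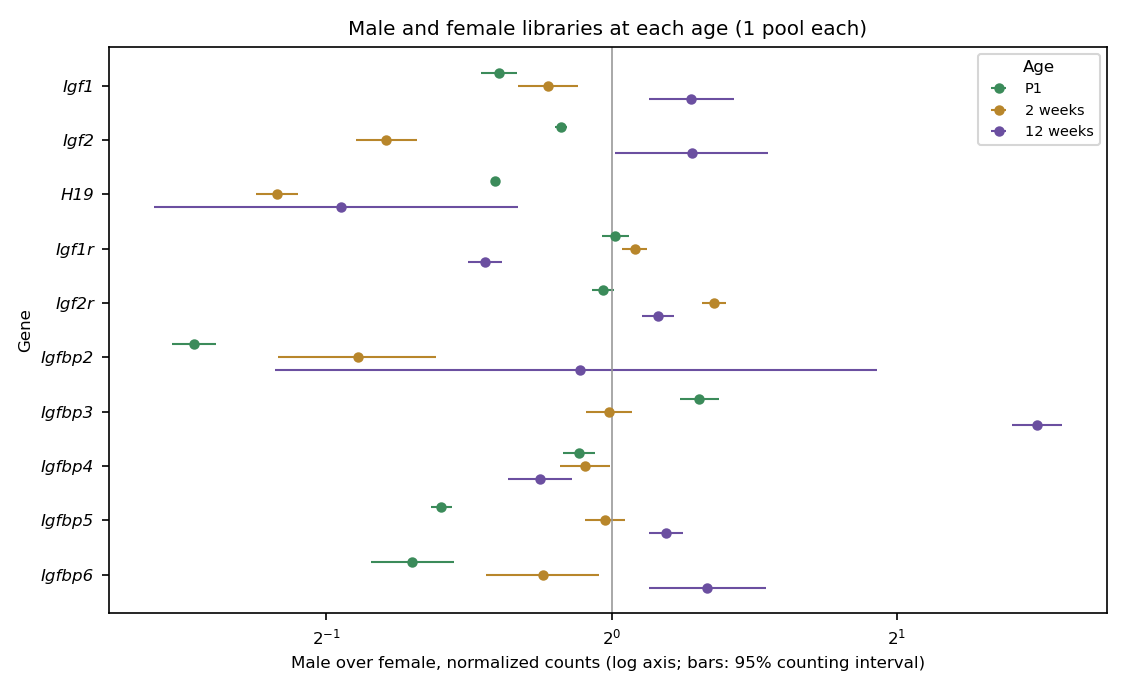
Ratio of the male to the female library at each age for the 10 genes (log axis, bars of 95% counting intervals, 1 pool per sex and age). Igfbp3 at 12 weeks (2.81) is the highest point, and Igfbp2 at P1 (0.363) and H19 at 2 weeks (0.444) are the lowest.

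Of 51 other genes of the pathway, 49 were tested. In limma 3 of them rose and 11 fell in the first step, against 5.89% and 10.5% of all genes, with a median of -0.15. In the second step 1 rose and 12 fell, against 5.4% and 9.89%, with a median of -0.18. Over both steps 4 rose and 15 fell, against 17.6% and 23.5%, with a median of -0.15. For sex 0 passed, and 0 had an unadjusted p under 0.05, in the fit that also missed the Y-linked genes. As for the members, the calls of the first step named here were lost without the P1 male library, and all but that of Plagl1 without the P1 female library.

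Igfbp1, a binding protein made mainly in liver, fell most. It had 1410 normalized counts before birth, 4799 and 5145 at P1, 16.9 and 79.4 at 2 weeks, and 1.40 and 2.26 at 12 weeks, the last being 1 read in males and 2 in females. The liver sum given above was also lower at 2 weeks than at P1 and lower again at 12 weeks, and at 2 weeks it too was higher in the female library (34280 against 13123). Its part was not tested. Igfbp1 fell by 7.03 ± 0.506 from P1 to 2 weeks (adjusted p 0.00162 in limma). From 2 weeks to 12 weeks it was 12.1-fold lower in males (95% counting interval 1.92 to 502) and 35.1-fold lower in females (9.44 to 294).

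Of 7 genes that act on the Igf2 messenger or its transcription, 5 fell in the first step, 5 in the second and 7 over both in limma, against 10.5%, 9.89% and 23.5% of all genes, and 0 rose in any. Igf2bp1 and Igf2bp3, fetal RNA-binding proteins, were among them. From P1 to 12 weeks Igf2bp1 fell by 5.93 ± 0.360 on the log2 scale (adjusted p 0.000168 in limma), from 731.5 and 404.0 to 6.99 and 9.05 normalized counts. Igf2bp3 went from 1024.5 and 1114 to 12.6 and 2.26 (9 and 2 reads), 81.4-fold lower in males (95% counting interval 42.75 to 178.5) and 492-fold lower in females (136 to 4070, limma adjusted p 0.000309). Plagl1, an imprinted zinc finger factor, had 7637 normalized counts before birth, 7337 and 8901 at P1, 471.5 and 561.1 at 2 weeks and 205.5 and 243.2 at 12 weeks. It fell by 3.97 ± 0.142 from P1 to 2 weeks (adjusted p 0.000562). Igf2os, antisense to Igf2, went from 127.6 and 141.3 normalized counts at P1 to 9.79 and 1.76 at 2 weeks (11 and 2 reads). It was 13.05-fold lower in males (95% counting interval 7.09 to 26.7) and 80.1-fold lower in females (21.7 to 668), with a limma adjusted p of 0.00705.

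Of 5 proteases and inhibitors of the binding proteins, 3 fell and 0 rose from P1 to 12 weeks in limma, against 23.5% and 17.6% of all genes. Htra1, a serine protease, rose by 0.80 ± 0.146 from P1 to 2 weeks (adjusted p 0.0163) and had 1051.5 and 1102 normalized counts at 2 weeks against 603.1 and 634.7 at P1. The rise was lost when any 1 library of those ages was left out. From 2 weeks to 12 weeks Htra1 fell by 0.68 ± 0.146 (limma adjusted p 0.0278), to 661.3 and 682.2 normalized counts. Its difference from P1 to 12 weeks was 0.12 ± 0.146 (limma adjusted p 0.547).

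Of the 25 genes of signal transduction, 2 fell in the first step and 2 in the second, and 3 rose and 3 fell over both in limma. Of all genes, 10.5% and 9.89% fell in the single steps, and 17.6% rose and 23.5% fell over both. The medians of the 25 lay between -0.09 and 0.08. Pik3cb, a catalytic subunit of PI3 kinase, rose by 0.55 ± 0.171 from P1 to 12 weeks (adjusted p 0.0422 in limma), a call lost when any 1 of the 6 libraries was left out (adjusted p 0.0527 to 0.201).

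In the growth hormone arm, Stat5a and Stat5b, which carry the growth hormone signal to the nucleus, were highest at 2 weeks. Stat5a had 343.7 and 490.1 normalized counts at P1, 1241 and 1281 at 2 weeks and 472.6 and 601.9 at 12 weeks. Stat5a rose by 1.62 ± 0.176 and Stat5b by 0.87 ± 0.178 from P1 to 2 weeks (adjusted p 0.00381 and 0.0225 in limma), and both fell from 2 weeks to 12 weeks (adjusted p 0.00731 and 0.0378). Ghr, the growth hormone receptor, rose by 1.17 ± 0.244 from 2 weeks to 12 weeks (adjusted p 0.0252), from 1041 and 1171 to 3311 normalized counts in males and 1863 in females. The rise of Ghr did not pass when any 1 of the P1 and 2-week libraries was left out (adjusted p of up to 0.245).

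Genes whose course over the 7 libraries was most like that of 3 members were sought among the 12255 genes averaging 100 normalized counts or more, by Pearson's r of log2 values. This describes likeness over 7 points that share their libraries, and carries no test. For H19 they were Sdc1 (0.999), Kng1 (0.999), Hsd17b13 (0.998), Serpinc1 (0.998) and Ahsg (0.998). Kng1, Serpinc1 and Ahsg encode plasma proteins made in liver, and Ahsg is one of the 8 liver markers summed above. For Igf2 they were Sall1 (0.997), AW551984 (0.997), Lox (0.996), Lyve1 (0.996) and Grip1 (0.995), and for Igf1 Slc38a4 (0.998), Myl4 (0.998), C1qtnf3 (0.997), Igsf10 (0.997) and Fndc1 (0.996). Lox, an enzyme that crosslinks collagen, had 4990 and 3759 normalized counts at P1 and 158.0 and 139.2 at 12 weeks.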

How the data were processed

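The members and gene lists were chosen with earlier results of these data known. The authors deposited normalized counts per gene, a signal that holds whole reads over a size factor: values were whole multiples of 1 step within 0.01 reads in 100% of cases. The submitters' processing notes list CASAVA 1.8.2, HISAT2 2.1.0, HTSeq 0.9.1 and DESeq2 2.11.40.6 with mm10. The annotation and use of strand are not given in the sources used here. Age and sex entered additive fits of the 6 postnatal libraries in limma 3.58.1 under R 4.3.3 (eBayes with trend, two-sided, Benjamini-Hochberg) on log2(normalized count + 1), a scale that understates changes of low genes, over 16720 genes averaging 10 or more. Alternatives used edgeR 4.0.16 and DESeq2 1.42.0 on the recovered reads, other scalings, pseudocounts and filters, and left out each library. On simulated data with 200 of 16720 genes changed by 2 on the log2 scale, the fits recovered 88.0% for P1 against 2 weeks, 84.5% for 2 against 12 weeks, 89.0% for P1 against 12 weeks and 93.0% for sex, and 8.82 to 14.2% of calls were false. The simulated libraries differed in no other gene means and held no mixed pool. In the data the sex fit did not call the Y-linked genes, so its 93.0% does not carry over. Intervals are exact binomial (Clopper-Pearson) at 95% on recovered reads and cover counting error only, since no molecular identifiers are described. Levels per kilobase use the union of exons in GENCODE M21 (GRCm38), which may differ from the authors' annotation. The p-values measure only the spread between pools that the terms of the fit leave over. The genes named are all members, the 3 highest and 3 lowest called pathway genes per comparison, antisense partners, and the 5 genes most like Igf2, H19 and Igf1. A gene that this rule names is not reported here. Tables and figures used Python 3.11.15. Other genes (Grb10, Pappa, Igfbp7, Insr, Igfals, Ins1 and Ins2) were named after their values were seen.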

Additional observations from a re-analysis of the deposited data

Results flagged for a closer look

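Differences that went opposite ways beyond counting error in single libraries are given as values. From 2 weeks to 12 weeks the ratio of later to earlier was 2.255 in males and 0.798 in females for Igfbp3, and 0.741 in males and 1.065 in females for Igf1r. The departure of the Igfbp3 sex difference at 12 weeks was 1.34 on the log2 scale in limma (adjusted p 0.0201), and that of Igf1r was -0.49 (adjusted p 0.654).

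The male over female ratio of single libraries turned between ages in 5 members, and in none of them did the departure of the sex difference at 12 weeks from that of P1 and 2 weeks pass in limma. The adjusted p was 0.475 for Igf1, 0.319 for Igf2, 0.654 for Igf1r, 0.676 for Igfbp5 and 0.348 for Igfbp6. Igf1 had 0.761 at P1, 0.857 at 2 weeks and 1.21 at 12 weeks. Igf2 had 0.884 at P1, 0.578 at 2 weeks and 1.215 at 12 weeks. Igf1r had 1.06 at 2 weeks and 0.735 at 12 weeks. Igfbp5 had 0.661 at P1 and 1.14 at 12 weeks. Igfbp6 had 0.616 at P1, 0.846 at 2 weeks and 1.26 at 12 weeks. Each value compares 1 pool with 1 pool, and the library labelled P1 female held Y-linked transcripts.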

How the results depend on the processing

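Of 400 member differences recomputed with all libraries kept, 384 stayed on the same side of the threshold, 13 lost their call, 3 gained one and 0 turned. No paired analysis was possible because the groups, with 1 library each, share no more than 1 replicate number. The age fits matched libraries by sex and the sex fit by age, and without these blocks 7, 4 and 7 members were called in the age comparisons and 0 for sex (0 at an unadjusted p under 0.05 in limma). With all genes of a mean above 0 tested, the count of called members was 0 for P1 against 2 weeks and 0 for 2 against 12 weeks in limma (7 and 4 at an unadjusted p under 0.05). Equal totals moved the median of all genes to -0.20 for 2 against 12 weeks, and no member turned. The 12-week departure had 0 called members with a pseudocount of 10, without a filter, with equal totals, with TMM factors, without trend and in edgeR (4, 1, 4, 4, 1 and 2 at an unadjusted p under 0.05). At a 4-fold limit 0 members were apart in each of the 4 single-library comparisons. A 1.5-fold limit gave 3 for E18.5 against P1, and for the sexes 3 at P1, 3 at 2 weeks and 2 at 12 weeks. Of 100 single-library folds under other scalings, 71 stayed within their counting interval, 29 moved beyond it and 0 turned.

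Leaving out 1 library gave 0 to 8 called members for P1 against 2 weeks, 3 to 6 for 2 against 12 weeks, 5 to 9 for P1 against 12 weeks and 0 to 1 for sex. Of 240 member differences so recomputed, 192 stayed on their side of the threshold, 19 lost a call, 11 gained one and 18 turned, none of which had passed. Igf1r ranged from -0.08 to 0.22, from -0.42 to 0.07 and from -0.35 to 0.14 in the 3 age comparisons, Igfbp3 from -0.25 to 1.09 for 2 against 12 weeks and from -0.92 to 0.42 for P1 against 12 weeks, and Igfbp6 from -0.02 to 0.78 for 2 against 12 weeks. For sex the ranges were -0.31 to 0.03 for Igf1, -0.48 to 0.05 for Igf2, -0.22 to 0.05 for Igf1r, -0.31 to 0.08 for Igfbp5 and -0.47 to 0.05 for Igfbp6. The causes were not tested.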

Other observations

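Some pathway genes counted but not named above had high levels at all ages. Igfbp7, a secreted protein related to the binding proteins, had 6746 normalized counts before birth, 8103 and 6383 at P1, 11028 and 11947 at 2 weeks and 7189 and 10317 at 12 weeks, and no age difference passed the threshold in limma (adjusted p 0.0916, 0.253 and 0.385). Insr, the insulin receptor, ranged from 5761 in P1 male to 7825 at E18.5, and its age differences did not pass either (adjusted p 0.471, 0.739 and 0.667). Igfals, which encodes the subunit that stabilises the ternary IGF complex in blood, had 44.15 normalized counts or fewer in all 7 libraries. Ins1 and Ins2, the insulin genes, had 4.09 normalized counts or fewer.

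Grb10, an imprinted adaptor that restrains insulin and IGF receptor signalling, fell by 1.10 ± 0.167 from P1 to 2 weeks and by 1.27 ± 0.167 from 2 weeks to 12 weeks on the log2 scale (adjusted p 0.00946 and 0.00585 in limma). It had 19086 normalized counts at E18.5, 15841 and 14092 at P1, 6844 and 7132 at 2 weeks and 2619 and 3194 at 12 weeks. Pappa, the protease that cleaves IGFBP4, had 565.5 normalized counts at E18.5, 918.9 and 627.0 at P1, 169.0 and 168.5 at 2 weeks and 90.9 and 58.8 at 12 weeks, and fell by 2.16 ± 0.236 and 1.20 ± 0.236 at the same steps (adjusted p 0.00382 and 0.0213). All genes of this part were chosen after their values were seen.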
